A study of Rattus norvegicus with 8 samples.

Results

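The genes of 2 ion channel families were followed through the nuclei of the rat nodose ganglion: the KCNQ potassium channel genes Kcnq3 and Kcnq5, and the HCN channel genes Hcn2, Hcn3 and Hcn4. They were named by symbol, with earlier results of these data known. All 5 of them had an entry among the 30560 genes of the count matrix. The matrix held 36741 nuclei, of which 36739 were used, from 8-week-old naive Long Evans rats, 18 of each sex. Nuclei came from 12 pools, 3 for each combination of labelled sex and side, and each pool combined the ganglia of 1 side from 6 rats. The 2 sides of a sex therefore draw on the same animals, and the p-values below measure the spread between pools. The design asks whether these channels differ between cell types, between left and right ganglia and between the sexes.

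KCNQ subunits form slowly opening potassium channels that carry the M-current, a brake on repetitive firing that stays open near the resting potential. Receptors that couple to Gq and phospholipase C, such as muscarinic and bradykinin receptors, close these channels by depleting the membrane lipid PIP2. HCN subunits form channels that open on hyperpolarisation, pass an inward current of sodium and potassium, and respond to cyclic AMP to different degrees. In vagal sensory neurons both currents are known to set resting potential and firing, and blood pressure afferents are among the cells in which they have been studied.

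Pools ML1 and FL1 went against their sex label. The Y-linked genes summed to 2.88 CPM (UMIs scaled to a total of 1e6; a UMI is a unique molecular identifier, 1 counted transcript) in the pool labelled male, left, replicate 1 (ML1), where the other male-labelled pools had 84.4 to 91.3. They summed to 88.7 CPM in the pool labelled female, left, replicate 1 (FL1), where the other female-labelled pools had 2.73 to 3.95. Sex is therefore written as labelled, and results are given with and without both pools. Total UMIs ran from 7139364 to 19456287 per pool, and the median nucleus had 2680 UMIs. Of the nuclei, 25905 were neurons, which divided into 16999 nodose-like, 3004 jugular-like and 5902 unnamed neurons. In nodose-like nuclei 7 of 9 nodose markers were at least 2-fold above the jugular-like level, and in jugular-like nuclei 6 of 8 jugular markers were at least 2-fold above the nodose-like level. Another 4558 nuclei (12.4%) had mixed or no defining markers and stayed unnamed. Clusters are written by their 3 leading genes, and the KCNQ and HCN genes were left out of the genes used to cluster.

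Kcnq3, the subunit that pairs with other KCNQ subunits to make most neuronal M-channels, divided the neurons into rich and poor clusters. Its level is the share of all UMIs of a cell class in a pool, in CPM, as the mean ± SD over the 12 pools. Nodose-like neurons had 1409 ± 208 CPM (1056 to 1747), unnamed neurons 792 ± 132 CPM (617 to 1002) and jugular-like neurons 264 ± 45.6 CPM (193 to 325). The nodose-like and jugular-like ranges did not overlap. Over the 21 neuron clusters that were found in every pool the level ran over a 17.7-fold range. The highest 3 were Edn3 Chrdl1 Kcng1 neurons at 2844 ± 326 CPM, Fhip1a Kirrel3 Col27a1 neurons at 2734 ± 231 CPM and Hunk Pde1a Lpar3 neurons at 2521 ± 399 CPM. The lowest 3 were Hmcn1 Ntrk3 Agtr1a neurons at 204 ± 72.0 CPM, Nxph1 Rnf220 Eya4 neurons at 197 ± 54.0 CPM and Spp1 Kcna1 Syt2 neurons at 161 ± 69.9 CPM. Of these clusters 7 were above 1000 CPM, 11 were below 400 CPM and 3 lay between.

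The widest step in that order fell between Tafa4 Crhr2 Slc35f4 neurons (1446 CPM) and F2r Stom Dsp neurons (649 CPM), which differed by 797 ± 315 CPM in the same direction in 12 of 12 pools. It passed an exact paired sign-flip test over pools (two-sided p = 0.000488, the smallest the test can give, adjusted p = 0.00977 over 20 neighbour pairs). In all 4 of the 20 neighbour pairs passed, and no pair of neighbours within the upper 5 or within the lower 11 clusters did. After thinning every nucleus to 1000 UMIs, 85.5% of Edn3 Chrdl1 Kcng1 nuclei held a Kcnq3 UMI (exact binomial interval 83.5% to 87.4%). The share was 13.5% (11.9% to 15.3%) in Itgae Chrm2 Gpr65 nuclei. Before thinning the shares were 94.4% and 26.3%, with median depths of 2608 and 2781 UMIs. In myelinating Schwann nuclei, taken as the background class, it was 15.7% (13.8% to 17.7%), and 28.7% before thinning at a median depth of 1651 UMIs. The share in Itgae Chrm2 Gpr65 nuclei was thus not above background. Intervals cover counting error only.

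**Figure D1:**
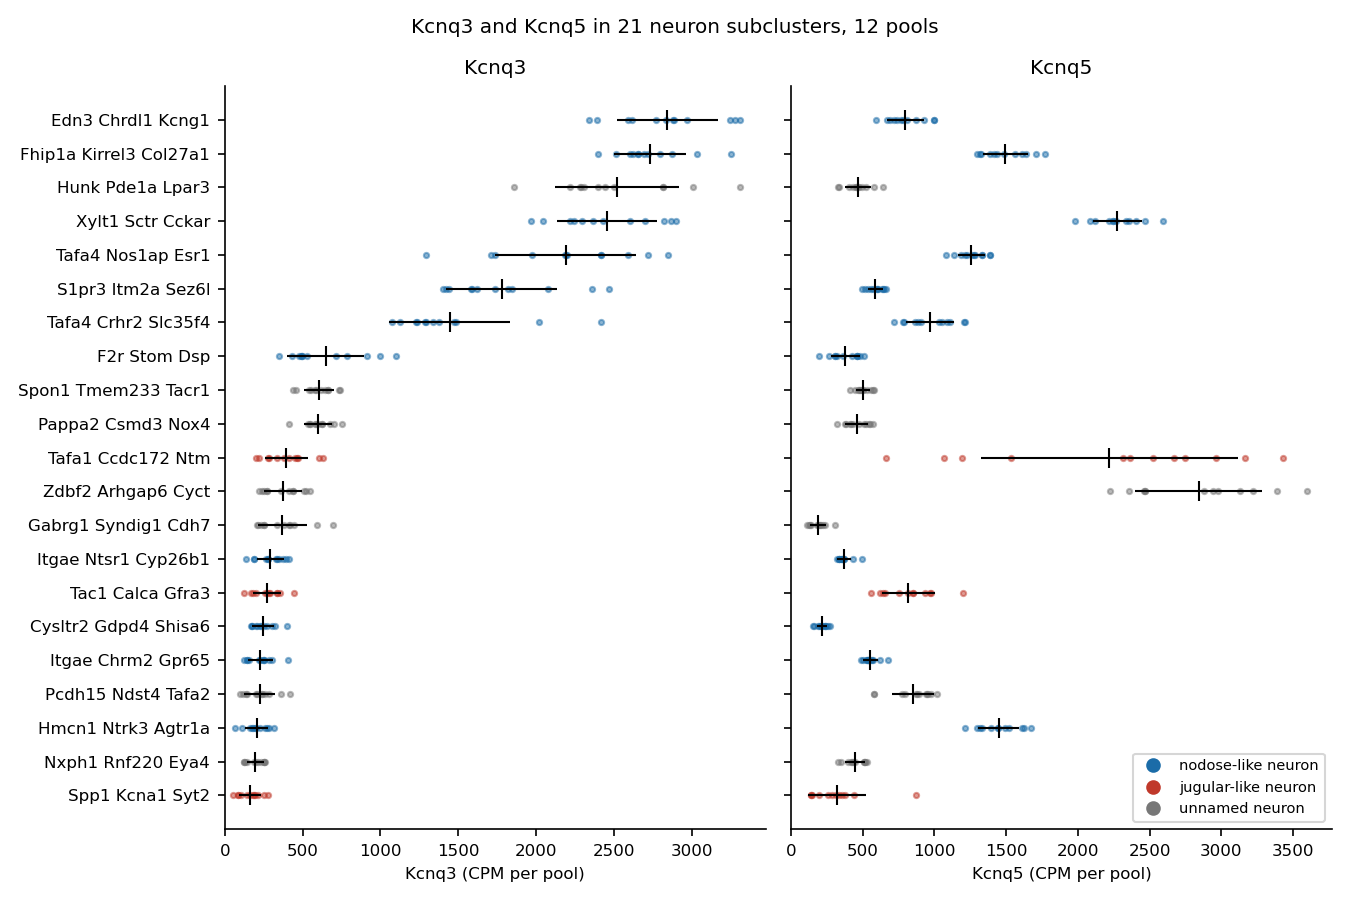
Kcnq3 and Kcnq5 levels in the 21 neuron clusters found in every pool, in CPM, with 1 point per pool and the mean ± SD. Kcnq3 falls from 1446 to 649 CPM between Tafa4 Crhr2 Slc35f4 and F2r Stom Dsp neurons, whereas the Kcnq5 order differs and has its highest mean in Zdbf2 Arhgap6 Cyct neurons.

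Kcnq5, a subunit that can form M-type channels alone or with Kcnq3, was spread differently. Its class means were 970 ± 244 CPM in jugular-like, 891 ± 111 CPM in nodose-like and 650 ± 42.2 CPM in unnamed neurons. The step from jugular-like to nodose-like neurons did not pass (exact paired sign flips, adjusted p = 0.374). Nodose-like neurons were above unnamed neurons in 12 of 12 pools (exact paired sign flips, adjusted p = 0.00293). The nodose-like range (744 to 1064 CPM) lay inside the jugular-like range (610 to 1457 CPM). Among the 21 clusters the level ran over a 15.2-fold range. Zdbf2 Arhgap6 Cyct neurons had 2842 ± 443 CPM, Xylt1 Sctr Cckar neurons 2276 ± 170 CPM and Tafa1 Ccdc172 Ntm neurons 2220 ± 895 CPM. The last had the widest pool range, from 664 to 3431 CPM. At the low end were Spp1 Kcna1 Syt2 neurons with 321 ± 200 CPM, Cysltr2 Gdpd4 Shisa6 neurons with 216 ± 36.6 CPM and Gabrg1 Syndig1 Cdh7 neurons with 187 ± 54.0 CPM. The first neighbour step, from Zdbf2 Arhgap6 Cyct to Xylt1 Sctr Cckar neurons, passed the paired test (11 of 12 pools, adjusted p = 0.00977 by exact sign flips), and 4 of 20 neighbour pairs passed in all. In the order of the 7 cell classes described here, 5 of 6 neighbour steps passed for Kcnq3, 3 for Kcnq5, 1 each for Hcn2 and Hcn3 and 0 for Hcn4.

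The 2 KCNQ genes were high in partly different clusters. Xylt1 Sctr Cckar neurons were high in both (2455 CPM of Kcnq3), as were Fhip1a Kirrel3 Col27a1 neurons (1495 CPM of Kcnq5). Zdbf2 Arhgap6 Cyct neurons, highest in Kcnq5, had 373 CPM of Kcnq3. Hmcn1 Ntrk3 Agtr1a neurons, which carry the angiotensin receptor gene Agtr1a among their leading genes, had 1446 CPM of Kcnq5 and were among the lowest 3 in Kcnq3. Over the 21 clusters the levels of Kcnq3 and Kcnq5 had a Pearson r of 0.313 and a Spearman rho of 0.340. The clusters share pools and libraries, so this is a description. By the same measure over 24 clusters and 8875 genes, the genes most like Kcnq3 were the background potassium channel gene Kcnk3 (r = 0.848), Lrpprc (0.835) and Pros1 (0.803). Those most like Kcnq5 were the RNA-binding protein gene Khdrbs3 (0.798), Nln (0.736) and Afdn (0.730). Of each 3, 1 was also among the first 3 by Spearman rank.

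The HCN members were measured at far lower counts. Hcn2, the strongly cyclic AMP-sensitive subunit of many sensory neurons, had 2083 UMIs over all nodose-like nuclei and a level of 30.6 ± 4.23 CPM there. Jugular-like neurons had 30.4 ± 10.1 CPM and unnamed neurons 31.8 ± 5.85 CPM, and these ranges overlapped. The highest cluster was Spp1 Kcna1 Syt2 neurons at 88.8 ± 42.1 CPM, from 0 to 147 CPM over pools and resting on 96 UMIs in 279 nuclei. F2r Stom Dsp neurons followed at 55.6 ± 14.2 CPM and Gabrg1 Syndig1 Cdh7 neurons at 46.9 ± 16.3 CPM. Itgae Chrm2 Gpr65 neurons (21.5 ± 5.68 CPM), Tafa4 Crhr2 Slc35f4 neurons (21.4 ± 8.78 CPM) and Tac1 Calca Gfra3 neurons (20.4 ± 11.8 CPM) were lowest. None of the 20 neighbour steps passed the paired test, so the order is loose. After thinning, 8.99% of Spp1 Kcna1 Syt2 nuclei (5.84% to 13.1%) held a Hcn2 UMI, against 2.87% of nodose-like nuclei, which was 10.99% before thinning, and 1.40% of Schwann nuclei (0.843% to 2.17%).

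Hcn3, the least cyclic AMP-sensitive subunit, had 19.8 ± 2.92 CPM in nodose-like, 17.2 ± 6.16 CPM in jugular-like and 15.9 ± 3.65 CPM in unnamed neurons. After thinning, 1.63% of nodose-like and 0.588% of Schwann nuclei held a Hcn3 UMI, which were 7.24% and 1.27% before thinning. Its clusters spanned a 3.23-fold range, the narrowest of the 5 genes. F2r Stom Dsp neurons had 31.6 ± 13.2 CPM, S1pr3 Itm2a Sez6l neurons 26.1 ± 7.60 CPM and Xylt1 Sctr Cckar neurons 25.8 ± 9.08 CPM. Pappa2 Csmd3 Nox4 neurons (10.9 ± 8.12 CPM), Itgae Chrm2 Gpr65 neurons (10.8 ± 5.18 CPM) and Spon1 Tmem233 Tacr1 neurons (9.80 ± 7.45 CPM) were at the bottom, and no neighbour step passed. Over the 21 clusters Hcn2 and Hcn3 had the highest correlation among the pairs of members (r = 0.591, rho = 0.681), as a description. The genes most like Hcn2 were Slc6a17 (0.939), Ckmt1 (0.930) and Prdx5 (0.896). Those most like Hcn3 were Rusc1 (0.870) and the glycolytic enzyme genes Tpi1 (0.866) and Eno1 (0.838).

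Hcn4, the slow subunit best known from the cardiac pacemaker, was the sparsest. Nodose-like neurons had 7.01 ± 1.04 CPM from 467 UMIs, jugular-like neurons 10.5 ± 4.89 CPM and unnamed neurons 8.84 ± 3.16 CPM. Fhip1a Kirrel3 Col27a1 neurons had 22.9 ± 4.94 CPM, from 16.1 to 30.2 CPM, and held 229 of those UMIs. Nxph1 Rnf220 Eya4 neurons followed at 13.7 ± 8.89 CPM and Spp1 Kcna1 Syt2 neurons at 13.4 ± 28.6 CPM, the latter from 7 UMIs. The lowest were Cysltr2 Gdpd4 Shisa6 neurons (2.24 ± 1.92 CPM), Itgae Chrm2 Gpr65 neurons (1.66 ± 2.09 CPM) and Itgae Ntsr1 Cyp26b1 neurons (1.38 ± 1.42 CPM). Even between the highest clusters no neighbour step passed the paired test after adjustment. After thinning, 2.23% of Fhip1a Kirrel3 Col27a1 nuclei held a Hcn4 UMI (1.77% to 2.77%). Before thinning it was 5.82%. In Schwann nuclei it was 0.294% (0.0801% to 0.751%). In Itgae Chrm2 Gpr65 nuclei 0 of 1671 did at 1000 UMIs, which allows a share of up to 0.221% at that depth, and 0.459% did before thinning. The genes most like Hcn4 were the TGF-beta receptor gene Tgfbr1 (0.864), Crebbp (0.816) and a gene listed only as ENSRNOG00000000866 (0.786).

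**Figure D2:**
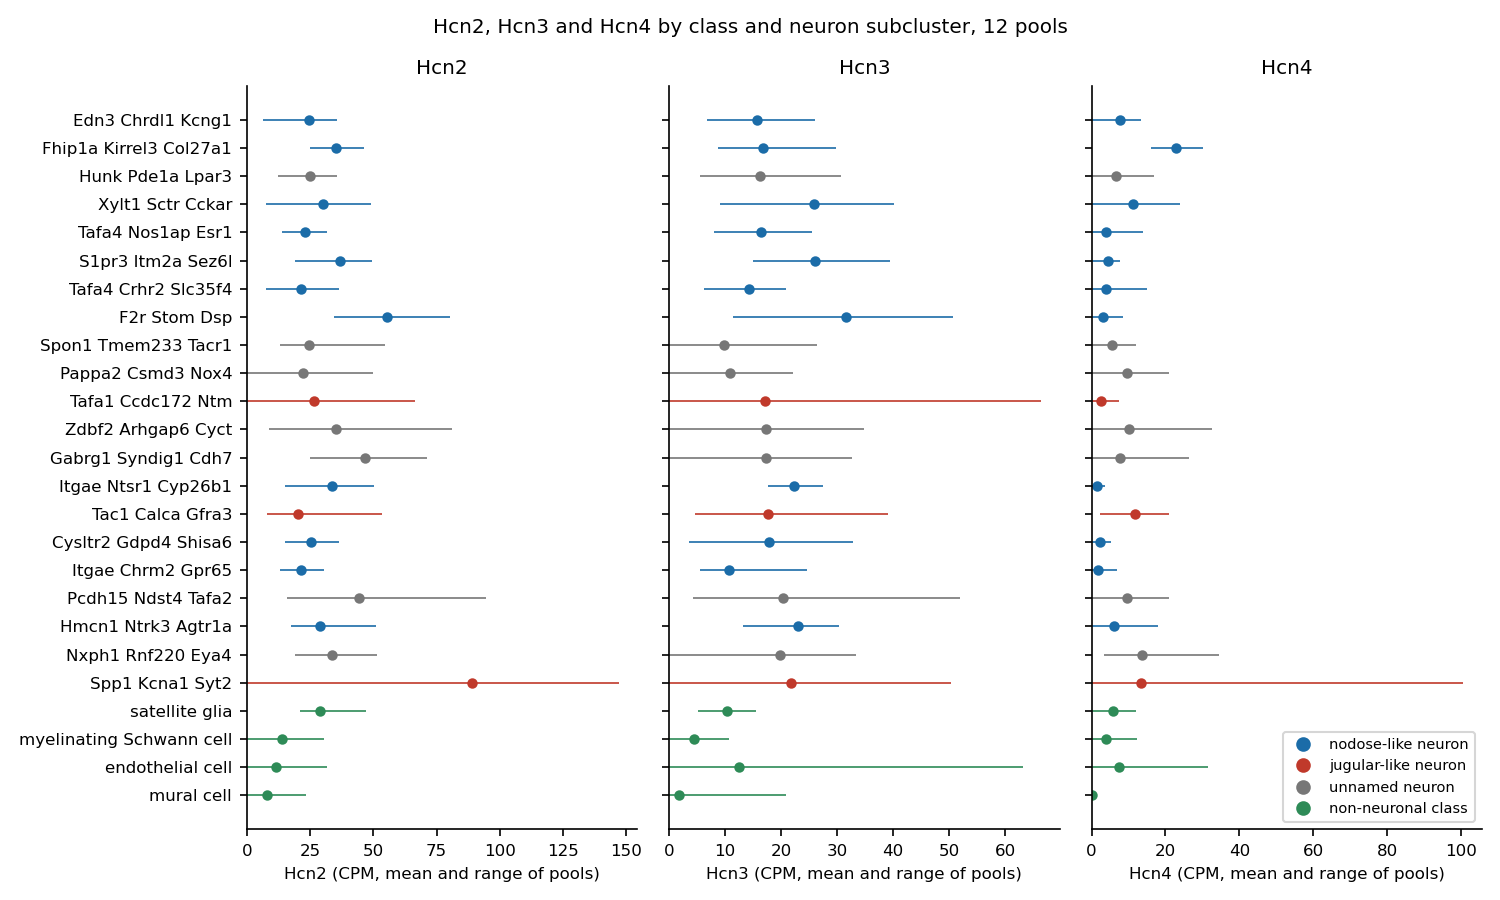
Hcn2, Hcn3 and Hcn4 levels by non-neuronal class and neuron cluster, in CPM, as the mean and range of the pools. Hcn2 has its highest mean in Spp1 Kcna1 Syt2 neurons (88.8 CPM) and Hcn4 in Fhip1a Kirrel3 Col27a1 neurons (22.9 CPM), and the pools of neighbouring clusters overlap.

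Both KCNQ genes also gave UMIs in non-neuronal nuclei. Satellite glia, the cells that wrap each sensory neuron, had 975 ± 71.7 CPM of Kcnq5 (840 to 1082), and 427 ± 47.7 CPM of Kcnq3 (352 to 496). Myelinating Schwann cells had 249 ± 52.1 CPM of Kcnq5 and 206 ± 79.0 CPM of Kcnq3. Endothelial cells had 643 ± 147 and 295 ± 109 CPM, and mural cells 303 ± 83.6 and 135 ± 52.2 CPM, of Kcnq5 and Kcnq3 in turn. After thinning, 57.7% of satellite glia nuclei held a Kcnq5 UMI and 27.0% a Kcnq3 UMI, which were 77.5% and 45.5% before thinning. In myelinating Schwann nuclei the thinned shares were 20.4% and 15.7%.

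Neuron markers were measured in the same nuclei. All 15 neuron markers had UMIs in satellite glia, where they summed to 9087 ± 526 CPM, 71.3% of the level in neurons. The sum was 33.8% of the neuron level in Schwann cells, 42.4% in endothelial cells and 18.3% in mural cells. Satellite glia themselves had 9 of 10 of their own markers at least 2-fold above neurons, but only 3 of 10 at least 2-fold above myelinating Schwann cells (summed level 3106 against 2000 CPM). Per 100 CPM of neuron markers, Kcnq3 stood at 9.18 ± 1.72 CPM in neurons and 4.70 ± 0.468 CPM in satellite glia, lower in 12 of 12 pools (exact sign flips, p = 0.000488, adjusted p = 0.0013 over 8 comparisons). Kcnq5 went the other way, from 6.76 ± 1.03 CPM in neurons to 10.8 ± 1.16 CPM in satellite glia, higher in 12 of 12 pools (exact, adjusted p = 0.0013). Schwann cells were at 5.88 ± 1.37 CPM of Kcnq5 by this measure, below satellite glia in every pool (exact, adjusted p = 0.0013). Endothelial cells were at 12.3 ± 4.19 CPM and mural cells at 13.8 ± 3.93 CPM, the latter above satellite glia (exact, adjusted p = 0.0117).

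The same quantities were taken in clusters of satellite glia, as a description. Fbln2 Tnc Apoe glia had 997 CPM of Kcnq5 and 186 CPM of Kcnq3, or 14.0 and 2.56 CPM per 100 CPM of neuron markers. Kctd12 Col28a1 Ctxnd1 glia had 917 and 743 CPM, or 8.61 and 6.97 CPM per 100 CPM of neuron markers. Kcnq5 thus stayed within 917 to 1279 CPM over the 4 glial clusters, where Kcnq3 ranged from 186 to 743 CPM. The part of free neuronal RNA in the glial levels was not tested.

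**Figure D3:**
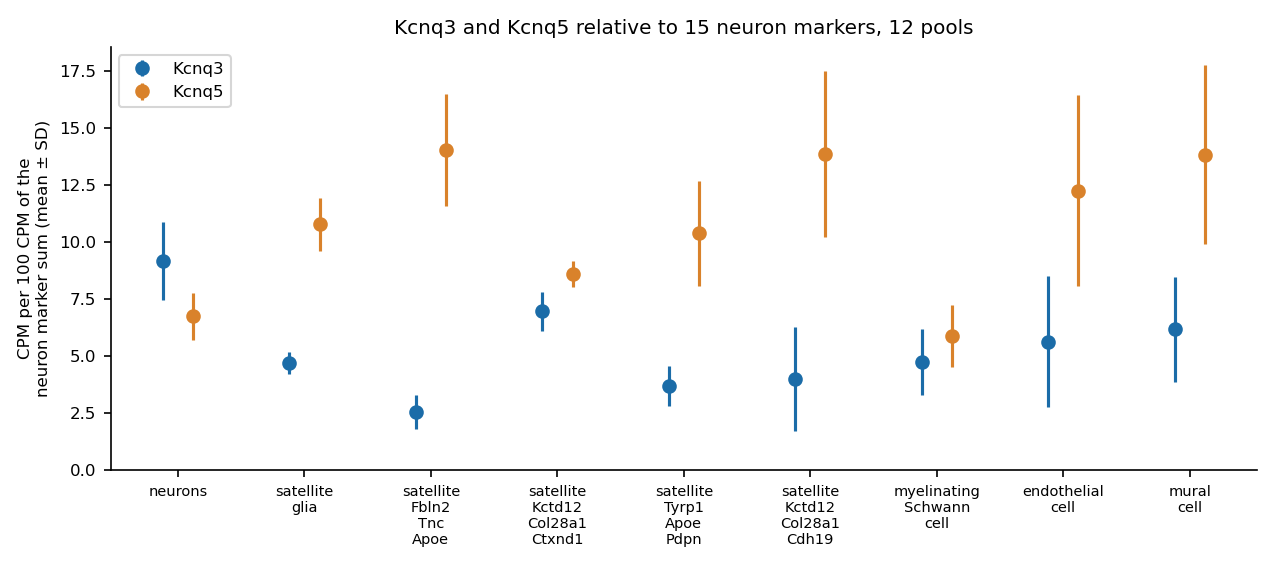
Kcnq3 and Kcnq5 per 100 CPM of neuron marker genes, by cell class and satellite glia cluster, as the mean ± SD over pools. Kcnq3 is lower in satellite glia (4.70) than in neurons (9.18), whereas Kcnq5 is higher in satellite glia (10.8) than in neurons (6.76).

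Of the 5 members, Kcnq3 and Kcnq5 were higher in right than in left nodose-like neurons. Kcnq3 in the left pools stood at 1056, 1365 and 1410 CPM (ML1 to ML3) and 1210, 1265 and 1193 CPM (FL1 to FL3). In the right pools it stood at 1536, 1674 and 1747 CPM (MR1 to MR3) and 1367, 1590 and 1493 CPM (FR1 to FR3). All right pools but FR1, which fell among the left pools, were above every left pool. The log2 ratio of right over left was 0.32 ± 0.064 (SE), with an adjusted p of 0.0135 by edgeR's quasi-likelihood test over all genes. Without ML1 and FL1 it was 0.26, with an adjusted p of 0.0492.

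Kcnq5 in left nodose-like neurons stood at 775, 901 and 868 CPM (ML1 to ML3) and 744, 768 and 789 CPM (FL1 to FL3). On the right it stood at 997, 1005 and 985 CPM (MR1 to MR3) and 827, 975 and 1064 CPM (FR1 to FR3). FR1 again lay among the left pools, below ML2 and ML3. The log2 ratio was 0.27 ± 0.052, with an edgeR adjusted p of 0.0122. Without ML1 and FL1 it was 0.23, with an adjusted p of 0.134, and the call was lost. Leaving out any single pool kept both calls. Neither difference passed once every pool was given the same cluster shares. The right over left ratio of mean log2 CPM was then 0.16 for Kcnq3 (exact permutation of sides within labelled sex, p = 0.095), against 0.33 as measured (exact p = 0.005, the smallest this test can give). For Kcnq5 it was 0.04 (exact p = 0.325), against 0.27 as measured (exact p = 0.005). In this class 114 of 13261 genes (0.86%) were called in either direction, and 0.339% without both pools, beside 2 of 5 members and then 1.

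In the other classes no member passed the test by side in the main fit, which used all 12 pools and the low-count filter. In all neurons together, Kcnq3 gave a log2 ratio of 0.28 and Kcnq5 of 0.16, both with an edgeR adjusted p of 0.482, where 0.136% of genes were called. In jugular-like neurons the log2 ratios were 0.06 for Kcnq3 (-0.17 to 0.29, 2 SE either way) and 0.10 for Kcnq5 (-0.23 to 0.43). In unnamed neurons they were 0.05 and -0.01. No gene (0%) was called in either class, in satellite glia or in endothelial cells. The 0 calls by edgeR in satellite glia compare with 487 of 9629 genes at an unadjusted p under 0.05.

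Satellite glia had 380, 352 and 434 CPM of Kcnq3 in the male-labelled left pools and 369, 400 and 466 CPM in the female-labelled ones. The right pools had 428, 496 and 478 CPM and 439, 486 and 402 CPM in the same order. The sides overlapped, with a log2 ratio of 0.19 ± 0.073 and an edgeR adjusted p of 0.901. The neuron marker sum in satellite glia ran from 8263 to 9267 CPM on the left and from 8440 to 9989 CPM on the right, and its part in that ratio was not tested. Whether the side difference of satellite glia differed from that of neurons was tested directly. For none of the 5 members did it pass (exact permutation of sides within labelled sex, two-sided, adjusted p from 0.3 to 0.71). The log2 ratio in satellite glia minus that in neurons was -0.12 for Kcnq3 (exact p = 0.315), -0.11 for Kcnq5 (exact p = 0.23), -0.35 for Hcn2 (exact p = 0.06), 0.12 for Hcn3 (exact p = 0.71) and -0.63 for Hcn4 (exact p = 0.34). For Hcn2 the unadjusted p was below 0.05 without ML1 (-0.47, exact p = 0.01), without ML1 and FL1 (-0.51, exact p = 0.01) and without the top doublet scores (-0.43, exact p = 0.035).

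In myelinating Schwann cells Kcnq3 had a log2 ratio of 0.67 ± 0.17 with an edgeR adjusted p of 0.194, where 0.0332% of genes were called. The left pools ran from 103 to 320 CPM and the right pools from 149 to 324 CPM. Without ML2, the highest left pool, the ratio was 0.87 and the adjusted p 0.006. Without FR1 the adjusted p was 0.0465, and without both pools that go against their label the ratio was 0.40. It also passed without the low-count filter (0.68, adjusted p = 0.00256) and without the top doublet scores (0.78, adjusted p = 0.0187). The neuron marker sum in these nuclei ran from 2946 to 5367 CPM on the left and from 3644 to 5444 CPM on the right, and its part was not tested.

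The HCN members gave no call by side in any class. In nodose-like neurons Hcn2 had 31.5 ± 4.45 CPM on the left and 29.8 ± 4.19 CPM on the right, with a log2 ratio of -0.11. Hcn3 had a log2 ratio of -0.10, and Hcn4 of 0.27 with an edgeR adjusted p of 0.503. Hcn4 stood at 7.00, 6.13 and 5.74 CPM and at 5.94, 7.43 and 5.71 CPM in the left pools, and at 8.39, 6.74 and 7.38 CPM and at 8.32, 8.62 and 6.74 CPM in the right pools. The sides overlapped. In satellite glia Hcn2 had 33.5 ± 8.25 CPM on the left and 24.3 ± 4.26 CPM on the right, a log2 ratio of -0.50 ± 0.18 with an edgeR adjusted p of 0.901. Counts of this size limit what can be shown: in all neurons the interval of 2 SE either way was -0.31 to 0.04 for Hcn2, -0.30 to 0.16 for Hcn3 and -0.12 to 0.36 for Hcn4.

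**Figure D4:**
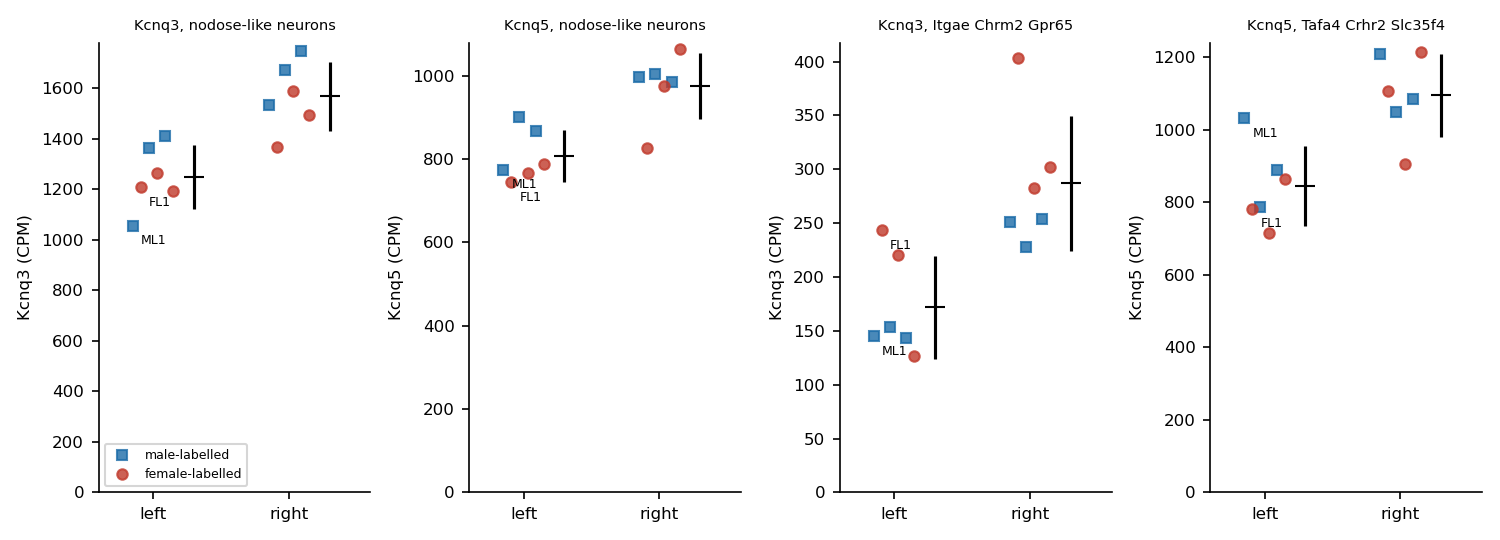
Kcnq3 and Kcnq5 levels in left and right pools, in CPM, with 1 point per pool and the mean ± SD of each side. Both genes are drawn in nodose-like neurons, Kcnq3 also in Itgae Chrm2 Gpr65 and Kcnq5 in Tafa4 Crhr2 Slc35f4 neurons. In nodose-like neurons the right pools of Kcnq3 (1367 to 1747 CPM) lie mostly above the left pools (1056 to 1410 CPM).

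Sides were also compared within single neuron clusters. Of the 16 clusters with at least 20 nuclei in every pool, Kcnq3 was called higher on the right in 2 and Kcnq5 in 1, and none was called lower. Itgae Chrm2 Gpr65 neurons, a cluster poor in Kcnq3, had 145, 153 and 144 CPM and 243, 220 and 126 CPM in the left pools. The right pools had 251, 228 and 254 CPM and 404, 283 and 302 CPM. Within each labelled sex every right pool was above every left pool, and FL1 was the one left pool within the range of the right pools. The log2 ratio was 0.69 ± 0.11 (edgeR adjusted p = 4.69e-05), and 0.83 without ML1 and FL1 (adjusted p = 2.72e-05). In this cluster 1.03% of genes were called, and 0.639% without both pools. The level itself (229 CPM) was near that of Schwann nuclei (206 CPM), and the share of nuclei with a UMI was not above theirs. After thinning that share was 10.9 ± 4.72% in the left and 15.2 ± 2.24% in the right pools, which overlapped. The part of free RNA in this difference was not tested.

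Tafa4 Nos1ap Esr1 neurons, rich in Kcnq3, had 1293, 2188 and 1976 CPM and 1709, 2590 and 1734 CPM on the left. The right pools had 2420, 2720 and 2850 CPM and 2200, 2415 and 2190 CPM. FL2 was higher than 4 of the right pools. The log2 ratio was 0.38 ± 0.081 with an edgeR adjusted p of 0.00679, beside 0.472% of genes called. It rested on ML1: without that pool it was 0.27 with an adjusted p of 0.0786, and without ML1 and FL1 0.23 with an adjusted p of 0.282. DESeq2 gave 0.37 with an adjusted p of 0.687.

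Kcnq5 was higher on the right in Tafa4 Crhr2 Slc35f4 neurons. The left pools had 1031, 786 and 888 CPM and 782, 716 and 864 CPM, and the right pools had 1209, 1049 and 1084 CPM and 1106, 904 and 1215 CPM. All right pools but FR2 were above every left pool. The log2 ratio was 0.37 ± 0.079 (edgeR adjusted p = 0.00724), beside 0.53% of genes called, and 0.43 without ML1 and FL1 (adjusted p = 0.00495, 0.495% of genes called). Without FR3 the adjusted p was 0.0871. Kcnq3 in the same neurons had a log2 ratio of 0.32 with an adjusted p of 0.141, and 0.39 with an adjusted p of 0.0281 without both pools. It also passed without the low-count filter (0.31, adjusted p = 0.00928).

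Over the 16 clusters the Kcnq3 ratio was above 0 in 15, with a median of 0.22, and the Kcnq5 ratio was above 0 in 10, with a median of 0.10. Without ML1 and FL1 these were 12 and 11 of 16, with medians of 0.13 and 0.08. The clusters share the same pools, so their signs are not independent and the counts are a description. Whether the 3 called clusters differ from the remaining nodose-like neurons was tested by permuting sides within labelled sex, and none passed. These clusters were picked by their side calls in the same pools, and the p-values do not allow for that choice. The difference was 0.41 for Kcnq3 in Itgae Chrm2 Gpr65 neurons (exact p = 0.055, adjusted p = 0.165), 0.09 in Tafa4 Nos1ap Esr1 neurons (exact p = 0.495) and 0.11 for Kcnq5 in Tafa4 Crhr2 Slc35f4 neurons (exact p = 0.405). Hcn2 entered the test in 10 of the clusters, Hcn3 in 5 and Hcn4 in 1, with no call.

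**Figure D5:**
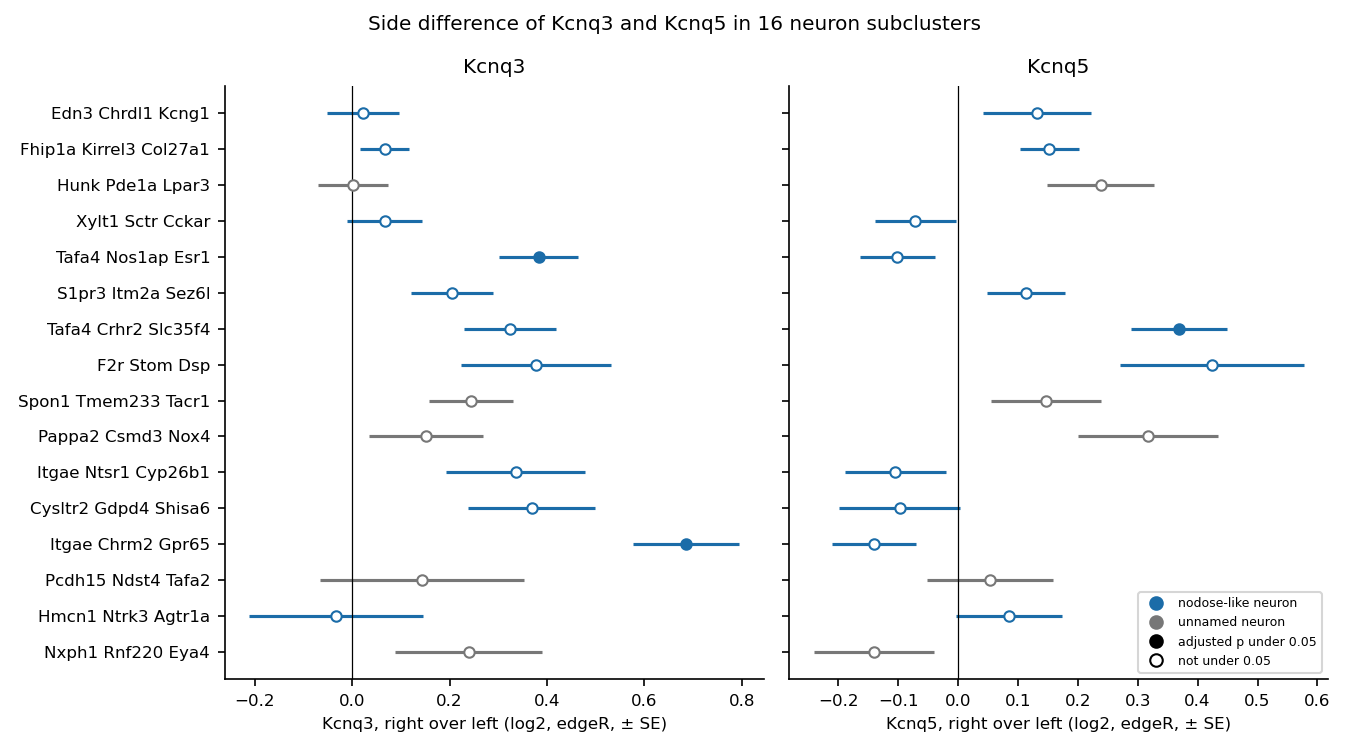
Log2 ratios of right over left for Kcnq3 and Kcnq5 by neuron cluster, with their standard errors. Itgae Chrm2 Gpr65 neurons have the highest Kcnq3 ratio (0.69), and most of the Kcnq3 ratios lie above 0.

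The makeup of nodose-like neurons was not tested here and is given by side as a description. Xylt1 Sctr Cckar neurons, high in both KCNQ genes, made up 6.62 ± 1.02% of left and 11.6 ± 0.709% of right nodose-like nuclei. Itgae Ntsr1 Cyp26b1 neurons, with 293 CPM of Kcnq3 and 367 CPM of Kcnq5, went from 8.37 ± 0.859% to 5.48 ± 1.79%. Cysltr2 Gdpd4 Shisa6 neurons, low in both, went from 11.8 ± 1.45% to 8.85 ± 2.08%. Clusters rich in Kcnq3 went both ways. S1pr3 Itm2a Sez6l neurons (1780 CPM of Kcnq3) went from 10.8 ± 2.60% to 7.76 ± 3.01%. Tafa4 Crhr2 Slc35f4 neurons (1446 CPM) went from 6.80 ± 1.40% to 5.80 ± 1.03%, and Tafa4 Nos1ap Esr1 neurons (2190 CPM) from 8.415 ± 1.07% to 10.7 ± 2.25%. When every pool was given the same cluster shares, Kcnq3 stood at 1347 ± 142 CPM on the left and 1509 ± 203 CPM on the right. For Kcnq5 the values were 887 ± 59.2 and 914 ± 57.1 CPM.

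Depth and markers of satellite glia were also compared between the sides. The median nodose-like nucleus had 3396 ± 607 UMIs in left pools and 2922 ± 586 UMIs in right pools (exact permutation p = 0.07). Satellite glia markers summed to 150 ± 14.4 CPM in left and 186 ± 38.9 CPM in right nodose-like nuclei (exact p = 0.075). Their part in the differences was not tested. After thinning every nucleus to 1000 UMIs, the share of nodose-like nuclei with a Kcnq3 UMI was 52.4 ± 2.85% on the left and 60.6 ± 1.71% on the right, with no overlap of the pools (47.7% to 55.8% against 58.8% to 62.8%). For Kcnq5 it was 49.6 ± 1.63% and 54.9 ± 2.74%, and the pools overlapped (46.9% to 51.7% against 50.04% to 57.8%). Nuclei with 3 or more Kcnq3 UMIs went from 22.6 ± 2.44% to 29.2 ± 3.13%.

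By labelled sex no member passed the test in any class with all 12 pools and the low-count filter. The log2 ratio of female-labelled over male-labelled pools in nodose-like neurons was -0.13 for Kcnq3 (edgeR adjusted p = 0.276) and -0.13 for Kcnq5 (adjusted p = 0.214), where 0.664% of genes were called. Kcnq3 passed there without ML1 (-0.19, adjusted p = 0.0495), a pool that goes against its label, and in unnamed neurons without the low-count filter (-0.21, adjusted p = 0.0145). Both had an unadjusted p under 0.05, and DESeq2 called no member in any class either. The shares of genes called by labelled sex were 0% in neurons, jugular-like neurons, satellite glia and endothelial cells, 0.11% in unnamed neurons and 0.0166% in Schwann cells. The Kcnq3 ratio was below 0 in 7 of 7 fits, those of all neurons, of their 3 classes and of 3 non-neuronal classes, the first of which overlap. The side by sex interaction called no member in neurons (0% of genes) or satellite glia (0.0312%), and no tested member had an unadjusted p under 0.05 there.

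In Fhip1a Kirrel3 Col27a1 neurons Kcnq5 was lower in the female-labelled pools, with 1607 ± 128 CPM in the male-labelled and 1382 ± 97.9 CPM in the female-labelled pools. The log2 ratio was -0.23 ± 0.050 (edgeR adjusted p = 0.0131), beside 0.701% of genes called. It was lost without MR2 (adjusted p = 0.0619), ML3 (0.0581) or FR1 (0.0529), and kept without ML1 and FL1 (-0.25, adjusted p = 0.00377).

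Leaving out ML1 and FL1 brought Kcnq3 past the threshold in 5 neuron clusters, in each of which it was lower in the female-labelled pools. In Tafa4 Crhr2 Slc35f4 neurons the male-labelled pools then had 1227 to 2415 CPM and the female-labelled pools 1074 to 1374 CPM, a log2 ratio of -0.46 (edgeR adjusted p = 0.00171, 0.535% of genes called). Itgae Ntsr1 Cyp26b1 neurons gave -0.48 (adjusted p = 0.0129, 0.629% called) and S1pr3 Itm2a Sez6l neurons -0.35 (adjusted p = 0.0125, 0.949% called). Hunk Pde1a Lpar3 neurons gave -0.32 (adjusted p = 0.0207, 0.334% called) and Fhip1a Kirrel3 Col27a1 neurons -0.21 (adjusted p = 0.0247, 0.957% called). With all 12 pools none of these 5 passed in edgeR with the low-count filter, with adjusted p from 0.0932 to 0.448. Without that filter Kcnq3 passed in S1pr3 Itm2a Sez6l (adjusted p = 0.0029), Tafa4 Crhr2 Slc35f4 (0.00316) and Itgae Ntsr1 Cyp26b1 neurons (0.00844), and DESeq2 called it in Fhip1a Kirrel3 Col27a1 neurons (-0.17, adjusted p = 0.0236). The shares of all genes called in these alternative fits are not given here. In Itgae Ntsr1 Cyp26b1 neurons the ratio was -0.37 with and without the filter, with an SE of 0.14 and 0.085. Each of the 5 also passed without at least 1 of ML1, FL1 and MR1 alone. In nodose-like neurons as a class 1.11% of genes were called without both pools, and no member.

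Few of the genes that act with these channels passed the test by side. The list held 39 genes: other KCNQ, KCNE and HCN subunits, the Gq and phospholipase C arm, channel binding and PIP2 supply, HCN accessory proteins and the enzymes of cyclic AMP. Of these, 37 had an entry and 32 were tested in neurons, where 0 passed by side in edgeR. At an unadjusted p under 0.05 there were 8 of the 32, beside 6.8% of all genes. DESeq2 called 1, Pex5l (0.16, adjusted p = 0.0213), beside 0.45% of all genes. Their median log2 ratio was -0.04, against -0.01 for all genes. In satellite glia 0 of 30 passed in edgeR or DESeq2, and 0 had an unadjusted p under 0.05 in edgeR. Nearest in neurons were Pex5l, which encodes the HCN-binding protein TRIP8b, at 0.16 (adjusted p = 0.251), and the cyclic AMP phosphodiesterase gene Pde4d at 0.16 (adjusted p = 0.493). In satellite glia they were Pde4d at 0.12 and the adenylyl cyclase gene Adcy9 at -0.22.

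In nodose-like neurons, where 0.86% of genes were called, 1 of the 32 rose on the right, Pex5l, with a log2 ratio of 0.20 (edgeR adjusted p = 0.0348), and the call was lost without ML1 and FL1 (adjusted p = 0.276). Itgae Ntsr1 Cyp26b1 neurons, where 0.807% of genes were called, had higher Pex5l (0.28, adjusted p = 0.0157) and Pde4b (0.43, adjusted p = 0.0011) on the right. Pde4b, which breaks down cyclic AMP, was also higher on the right in Itgae Chrm2 Gpr65 neurons (0.29, adjusted p = 0.0187). Plcb4, a phospholipase C of the Gq arm, was lower on the right in Tafa4 Nos1ap Esr1 neurons (-0.46, adjusted p = 0.0194). Without ML1 and FL1 the calls of Pex5l in Itgae Ntsr1 Cyp26b1 neurons (adjusted p = 0.0683) and of Pde4b in Itgae Chrm2 Gpr65 neurons (adjusted p = 0.171) were lost too. Those of Pde4b in Itgae Ntsr1 Cyp26b1 neurons (0.47) and of Plcb4 (-0.49, adjusted p = 0.0391) were kept. Of these 5 calls all but Pde4b in Itgae Ntsr1 Cyp26b1 neurons were lost when one or another single pool was left out.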

How the data were processed

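The authors deposited raw UMI counts per nucleus and gene, with a gene list and a table giving each nucleus its pool. Per the labels, fixed nuclei were barcoded with Evercode version 2 kits, spread over 8 sublibraries that each hold all 12 pools, and sequenced on a NextSeq 2000. The submitters' processing notes name the build mRatBN7.2, R 4.3.2 and Seurat 4.1.3. Which aligner and counter made them was not given in the sources used here. All matrix sums equalled the deposited transcript totals of all nuclei, so the counts are unscaled.

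Nuclei under 300 genes or over 5% mitochondrial UMIs were dropped. Scrublet called 1 nucleus (0.00272%) and so did not work as a doublet caller. Removing the top 5% of scores was an alternative. Between pools 0 nucleus barcodes were shared, and the well combination of 3808 nuclei recurred in another sublibrary. Clustering used scanpy 1.11.5 and Leiden at resolution 1, first on all nuclei and then within neurons and others, without the KCNQ and HCN genes. Classes were named from marker lists. Classes and clusters were tested where no pool had fewer than 20 nuclei, on UMIs summed per pool. The test was the quasi-likelihood F test of edgeR 4.0.16 (TMM, filterByExpr, side and labelled sex as terms) under R 4.3.3, with Benjamini-Hochberg adjustment over all tested genes, and called at an adjusted p under 0.05. DESeq2 was an alternative. Levels (CPM) are UMIs of a gene over all UMIs of the class or cluster, times 1e6, and log2 CPM in permutation tests had 0.5 UMIs added. Means over 12 pools were compared by exact paired sign flips, and sides by exact permutation within labelled sex (400 relabellings, smallest p 0.005). No test compared levels between genes. No gene lengths were used, so remarks that a gene had fewer UMIs than another concern counts only.

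The members, related genes and lists were chosen with earlier results of these data known. The text names the 5 members, the related genes called in any fit or with the 2 smallest p by side in neurons and in satellite glia, the 3 genes most like each member, and each member's 3 highest and 3 lowest clusters. Kcnq3 in Tafa4 Crhr2 Slc35f4 neurons, Kcnq3 in Schwann cells and the calls by labelled sex without 2 pools were singled out after their values were seen. The limits for naming clusters, the values with cluster shares held and the values per neuron marker were also settled after seeing the data. So was the comparison of the 3 clusters called by side with the remaining nodose-like neurons. Some results on related genes are not reported here.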

Additional observations from a re-analysis of the deposited data

Results flagged for a closer look

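In 7 of 82 groups of 6 pools, 1 pool lay far from the other pools of its side by Dixon's test, which chance alone does in about 1 of 20 groups. In 3 of these the level was in neurons. Kcnq5 in all neurons was 785 CPM in FR1, where the other right pools had 903 to 972 CPM. Hcn2 in all neurons was 39.9 CPM in FL1, a pool that goes against its sex label, where the other left pools had 27.7 to 32.3 CPM. Kcnq5 in unnamed neurons was 664 CPM in FR3, where the other right pools had 640 to 648 CPM.

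The other 4 were levels in non-neuronal nuclei. Hcn4 in satellite glia was 0 CPM in FL2 and 6.01 to 8.58 CPM in the other left pools. Kcnq3 in myelinating Schwann cells was 320 CPM in ML2 and 103 to 171 CPM in the other left pools. The endothelial nuclei of FL3 had 506 CPM of Kcnq3, where the other left pools had 151 to 282 CPM, and 31.6 CPM of Hcn4, where the others had 0 to 11.4 CPM.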

How the results depend on the processing

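Of 1220 alternative values for 84 results, 1090 were marked the same. Another 54 lost a call, 32 gained one, 31 changed direction and 13 were marked as moved. A level was marked as moved when it shifted by more than the SD between pools. A share of nuclei was so marked when its unthinned value left the interval of the thinned share. The cause was not tested. Of the 2 calls by side in the classes, 1 was left without ML1 and FL1 (Kcnq5 in nodose-like neurons 0.23, adjusted p = 0.134), and leaving out 1 pool gave 2 to 3. By labelled sex the count went from 0 to 1 without the low-count filter (Kcnq3 in unnamed neurons), and was 0 to 1 when 1 pool was left out (Kcnq3 in nodose-like neurons without ML1). For the related genes in neurons DESeq2 gave 1. The share of all genes called is not given for fits without the low-count filter, a single pool or the top doublet scores. Nor is it given for fits with the replicate block or for DESeq2 in single clusters. Calls in those fits therefore stand without that background. With cluster shares held, Kcnq3 in nodose-like neurons gave 0.16, and 0.10 without both pools, and Kcnq5 gave 0.043 and 0.034. The Kcnq3 level in satellite glia moved from 427 CPM to 497 CPM with the family genes among the clustering genes, to 522 CPM at resolution 0.5 and to 243 CPM at resolution 2. Its side difference against neurons was 0.086 at resolution 2.

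Every log2 ratio by side that changed direction was then within 0.2 of 0. Kcnq3 gave -0.0084 in jugular-like neurons at resolution 2, and in unnamed neurons -0.055 with the family genes in, -0.042 at resolution 2 and -0.024 without the top doublet scores (-0.0043 to 0.14 leaving out 1 pool). Kcnq5 in unnamed neurons gave 0.0006049 without the filter, 0.062 with the family genes in and 0.088 at resolution 2 (-0.032 to 0.017 leaving out 1 pool), and in Schwann cells -0.016 at resolution 0.5. Kcnq5 in jugular-like neurons ran from -0.034 to 0.21 leaving out 1 pool. Hcn2 in nodose-like neurons was 0.017 without ML1 and FL1. Hcn3 ran from -0.14 to 0.019 in neurons and from -0.017 to 0.21 in satellite glia leaving out 1 pool, and against neurons from -0.023 to 0.33, with -0.00093 at resolution 0.5. Hcn4 in unnamed neurons was 0.079 without ML1 and FL1, 0.19 with the family genes in, 0.0078 at resolution 0.5, 0.079 at resolution 2 and 0.0034 without the top doublet scores (-0.15 to 0.10 leaving out 1 pool).

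Whether replicate numbers pair the pools was not settled, and the main fits left them unpaired. Correlations of same-numbered left and right pools were 0.236, 0.317 and 0.095 in male-labelled pools. In female-labelled pools they were -0.023, 0.049 and 0.025. Over both labelled sexes 4 of 6 were best with their own number. With the replicate block the class calls by side numbered 2, and Kcnq3 in Tafa4 Crhr2 Slc35f4 neurons passed (0.33, adjusted p = 0.00577). Of the 16 clusters, Hcn3 entered the test in 5 and Hcn4 in 1.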

Other observations

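Small groups with few nuclei had more Hcn4 than any cluster found in all pools. Trpm8 Cdh8 Plcd4 neurons, led by the cold receptor gene Trpm8, had 37.9 CPM over 10 pools. Fibroblast nuclei, 80 in all, had 88.1 CPM from 10 UMIs. No Hcn4 UMI was found in 276 mural nuclei.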
